A study of Mus musculus with 4 samples.

Results

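Respiratory complex I, or NADH:ubiquinone oxidoreductase, was followed here through every gene whose symbol begins with Nduf, apart from Ndufa4 and Ndufa4l2, or with mt-Nd. This rule took 51 of the 23390 gene models in the deposited table: 36 nuclear-encoded subunits, 8 Ndufaf assembly factors and 7 mitochondrially encoded genes. The rule uses names alone and no measured value. All 51 passed the filter on low counts, which kept 13214 genes. Ndufb1-ps, the mouse locus of Ndufb1, has no row in the table and is not analysed here.

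RNA was sequenced from wild-type C57BL/6J mouse cultures labelled as osteoclasts, the multinucleated cells that resorb bone. BMS-582949, an inhibitor of the kinase p38α, was given at 10 µM to 2 of the cultures, and the solvent DMSO to the other 2. Both groups were bone marrow macrophages raised on L929 supernatant as the source of M-CSF (equivalent to 20 ng/ml) and then stimulated with 40 ng/ml RANKL, and RNA was collected at day 4. The compound was present for 3 days in the design text and for 4 days in the treatment protocol. The protocol mentions the compound even for the DMSO samples, so the treatment label defined the groups, and the titles of the treated samples carry its digits in another order. Nothing in the labels tells whether the libraries of a group stem from different mice or dishes. The spread behind each p-value is that of these samples alone and may be technical.

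Complex I takes electrons from NADH and passes them to ubiquinone while pumping protons out of the mitochondrial matrix. Its peripheral arm holds the N module, where NADH is oxidised, and the Q module, where ubiquinone is reduced. Its membrane arm carries the proton pumps, and all the subunits that mitochondrial DNA encodes for this enzyme sit there. Catalytic core subunits have counterparts in bacteria, and accessory subunits surround them. Assembly factors build the enzyme from pre-assembled parts and are absent from the finished complex. Osteoclasts are rich in mitochondria, and their formation from macrophages is accompanied by mitochondrial biogenesis.

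Libraries held 39255925 and 37455168 counts with BMS-582949, against 35331889 and 36178333 with DMSO. Of the genes tested, 29.7% were lower and 30.5% higher with BMS-582949 (60.2% in either direction) at a Benjamini-Hochberg adjusted p under 0.05 in edgeR's quasi-likelihood test, and the libraries of the groups did not overlap for 80.2%. Library size alone, in place of TMM scaling, moved the split of called genes to 24.9% lower and 75.1% higher, against 49.3% and 50.7%, and the median change over all genes to 0.41 on the log2 scale, against 0.03. The 10 osteoclast markers were all lower with BMS-582949 and summed to 13308 and 13563 CPM, against 111590 and 115960 CPM with DMSO. Of 8 macrophage markers 5 were higher and 2 lower, and together they summed to 2856 and 3038 CPM, against 5663 and 5910 CPM. Most of this sum came from the 2 lower genes. Cd68 had 1260 and 1455 CPM against 3442 and 3486 CPM, and Csf1r 875 and 891 CPM against 1886 and 2069 CPM. The most abundant of the 5 higher genes, Adgre1, had 402 and 398 CPM against 171 and 179 CPM. The 3 proliferation genes were all higher, with sums of 399 and 390 CPM against 100.2 and 96.4 CPM. Of 5 stromal markers 4 were lower (460 and 467 CPM against 715 and 659 CPM), and the markers of neutrophils, B cells, erythroid cells and T and NK cells each summed to at most 24.3 CPM in any library. These shifts in marker RNA accompany all results below, and their part in them was not tested. In bulk RNA, fewer cells of a type and less RNA per cell cannot be told apart.

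All 36 nuclear-encoded subunits were lower with BMS-582949, where 29.7% of tested genes were, and none was higher, where 30.5% were. Their median log2 fold change was -1.04, against 0.03 for all tested genes, and ranged between -1.73 and -0.55. A decrease of at least 2-fold was seen for 21 of the 36 with TMM scaling. It was seen for 14 with the GC and length trend removed and for 5 with library size alone. No such count is given here for all tested genes. Groups did not overlap for any of them, a separation that 80.2% of tested genes also showed. Every subunit was also called lower in each alternative processing tried except a test against a minimum change of 1.5-fold, which called 33. That test called 1824 of all 13214 tested genes lower.

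The 7 mt-Nd genes were likewise all lower, with a median log2 fold change of -0.97 and a range of -1.04 to -0.69. Against a minimum change of 1.5-fold, 5 of the 7 were called lower, where 1824 of all 13214 tested genes were. Assembly factors were mixed. Ndufaf1, Ndufaf3, Ndufaf4, Ndufaf5 and Ndufaf8 were lower, Ndufaf7 was higher, and Ndufaf2 and Ndufaf6 were not called. The median over the 8 assembly factors was -0.36, and 0.02 where scaling used library size alone. The median of all tested genes was 0.41 with that scaling. The median of the subunits lay 0.69 below that of the assembly factors on the log2 scale (a gap of -0.69), and this gap was between -0.85 and -0.67 over all alternatives. No test was made of the difference between the classes.

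**Figure D1:**
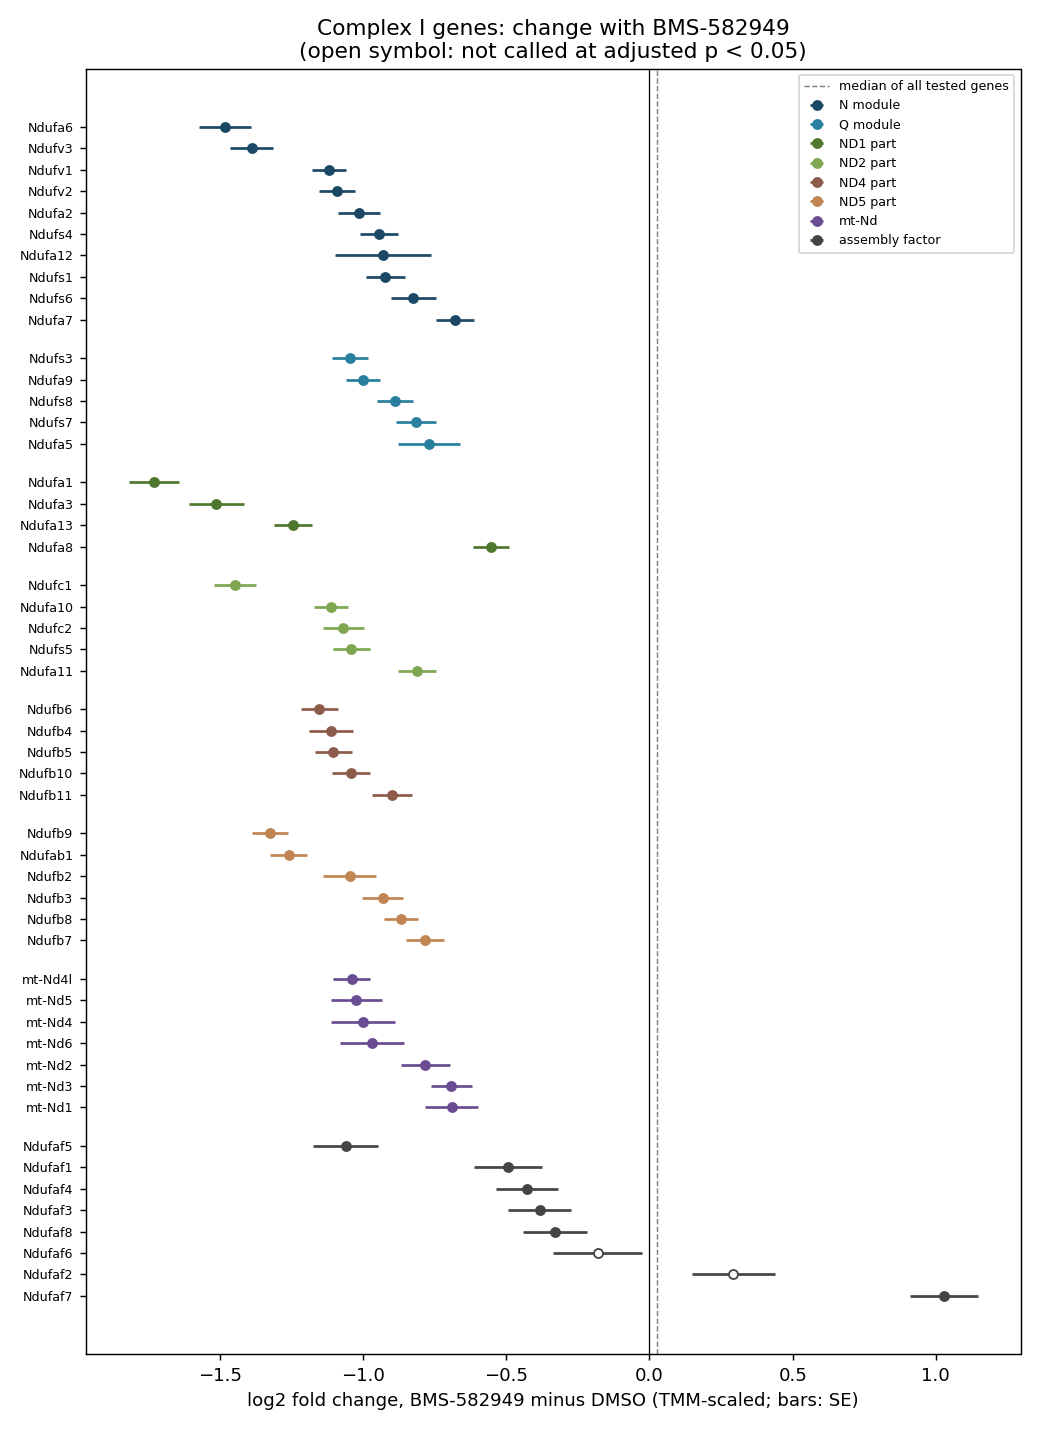
Log2 fold change, BMS-582949 minus DMSO, of complex I genes with TMM scaling, grouped by module or class; points are estimates, bars are standard errors and open symbols were not called. The subunits and mt-Nd genes all lie left of 0, between -1.73 and -0.55, while Ndufaf7 lies at 1.03.

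Core subunits were lower by amounts like those of the accessory subunits, whose median log2 fold change was -1.04 (29 genes). Ndufv1, which carries the flavin that accepts electrons from NADH, had 141.9 and 142 CPM with BMS-582949, against 309 and 308 CPM with DMSO. Its libraries nearly coincided within each group, and its log2 fold change was -1.12 ± 0.06 (adjusted p = 7.9e-09, edgeR). Ndufv2 and Ndufs1 hold iron-sulfur clusters of the N module. Ndufv2 had 141.9 and 154 CPM against 320.3 and 309 CPM, a log2 fold change of -1.09 ± 0.06. Ndufs1, the largest subunit, had 118 and 109 CPM with BMS-582949 and 208 and 221 CPM with DMSO, a log2 fold change of -0.92 ± 0.07.

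In the Q module, Ndufs3 had 83.1 and 86.5 CPM with BMS-582949, against 173 and 176 CPM with DMSO (log2 fold change -1.05 ± 0.06). Ndufs8 and Ndufs7 carry the clusters that hand electrons to ubiquinone. Ndufs8 had 129.9 and 138.5 CPM against 250.3 and 246 CPM (-0.89 ± 0.06). Ndufs7 had 85.3 and 97.0 CPM with BMS-582949, against 159 and 162 CPM with DMSO (-0.81 ± 0.07). The largest adjusted p of the core subunits given here was 7.8e-07, for Ndufs7.

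The lowest and the highest changes of all 36 subunits both fell in the part of the membrane arm that is built around ND1. Ndufa1 (chrX:37187588-37191163, minus strand), a small subunit anchored in the inner membrane, had 22.2 and 20.3 CPM with BMS-582949, against 74.0 and 67.3 CPM with DMSO. Its log2 fold change of -1.73 ± 0.09 was the most negative of all members (adjusted p = 5.8e-09, edgeR). Ndufa3, another small membrane subunit, had 22.8 and 21.8 CPM against 68.6 and 58.8 CPM (-1.51 ± 0.10; adjusted p = 4e-08). Ndufa13, also known as GRIM-19, was lower by the same test, at -1.24 ± 0.07.

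Ndufa8 (chr2:36036326-36049406, minus strand), a subunit on the intermembrane-space side, changed least. It had 93.7 and 98.0 CPM with BMS-582949, against 142 and 139 CPM with DMSO, and the groups did not overlap. Its log2 fold change was -0.55 ± 0.06 (adjusted p = 7.3e-06, edgeR). That value was -0.17 with library size alone and -0.14 after the trend on GC content and exon length was removed. The next highest changes were those of Ndufa7 and Ndufa5. Ndufa7 had 72.6 and 77.9 CPM against 122 and 118 CPM (-0.68 ± 0.07), and Ndufa5 22.5 and 22.4 CPM against 40.4 and 36 CPM (-0.77 ± 0.11). Both were also separate between the groups.

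By module, the median log2 fold change was -0.98 for the 10 subunits of the N module and -0.94 for the 6 of the Q module. In the membrane arm it was -1.38 for the 4 subunits of the ND1 part, -1.07 for the 5 of the ND2 part, -1.10 for the 5 of the ND4 part and -0.99 for the 6 of the ND5 part. The widest spread was that of the ND1 part, between -1.73 for Ndufa1 and -0.55 for Ndufa8, and differences in spread were not tested. In the N module, changes lay between -1.48 for Ndufa6 and -0.68 for Ndufa7. Without these genes, they lay between -1.39 for Ndufv3 and -0.82 for Ndufs6. The ND4 part was the narrowest, between -1.15 for Ndufb6 and -0.90 for Ndufb11. Ndufs4, an accessory subunit whose deletion in mice gives a widely used model of complex I deficiency, was at -0.94 ± 0.07. Ndufab1, an acyl carrier protein that also serves mitochondrial fatty acid synthesis, was at -1.26 ± 0.06.

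Ndufa12 was the subunit with the least agreement between libraries. It had 46.5 and 55.0 CPM with BMS-582949, against 119.7 and 73.4 CPM with DMSO. The DMSO libraries thus lay far apart, though both above the treated ones. The log2 fold change was -0.93 ± 0.17 (adjusted p = 4e-04, edgeR). Without DMSO replicate 1 it was -0.53, and it was -1.24 when DMSO replicate 2 was left out; the gene was called lower both times.

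Some subunits share sequence with other genes. Pseudogene copies of at least 95% identity over 200 or more bases exist for Ndufa12, Ndufab1, Ndufb3, Ndufb4, Ndufb11, Ndufs3, Ndufs5 and Ndufs6, and none of these copies has a row in the table. Exons overlap another gene by at least 10% of their length for 7 members, among them Ndufb6 (39.0%, Smim27), Ndufa13 (29.98%, Tssk6) and Ndufb9 (19.5%, Gm49356). Whether counting used strand is not given in the sources used here. Values of these genes are uncertain to the extent that reads were shared.

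Levels per exon length were compared in TPM, computed from the deposited counts. The length was that of all annotated exons of a gene, merged over its transcripts. It can exceed the length of the RNA present, so ranks between genes also depend on the annotation. Ndufc2, a subunit of the ND2 part, was highest in both groups with 448 and 479 TPM with BMS-582949, against 716 and 679 TPM with DMSO. Ndufb2 was last in both groups with 18.4 and 17.8 TPM, against 29.0 and 24.5 TPM. Its merged exons span 5628 bases, against 419 for Ndufa1. With DMSO the CPM of these genes were alike, 74.3 and 61.9 for Ndufb2 and 74.0 and 67.3 for Ndufa1. The order was largely kept: across the 36 subunits, log2 TPM with BMS-582949 and with DMSO had a Pearson r of 0.977, a description over genes of the same libraries. Ndufa8 was at rank 3 with BMS-582949 and at rank 10 with DMSO. Ndufa1 was at rank 19 with BMS-582949 and at rank 9 with DMSO. The size of the decrease showed little relation to the DMSO level (r = -0.041), to exon length (r = 0.073) or to GC content (r = 0.087) across these 36 genes.

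**Figure D2:**
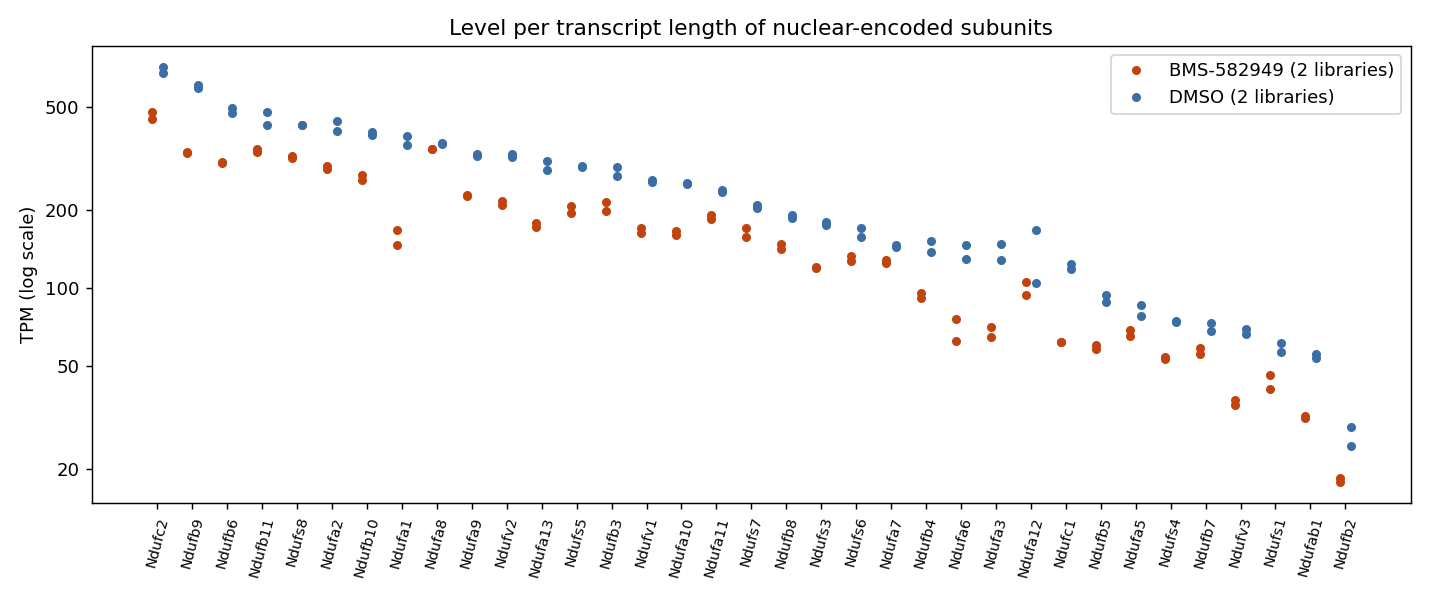
Level per merged exon length (TPM, log axis) of nuclear-encoded subunits in each of the 4 libraries, ordered by the DMSO mean, with BMS-582949 left of DMSO for each gene. Ndufc2 leads in both groups, and Ndufa8 shows the smallest step between them.

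TPM is scaled to the sum of each library and not by TMM, so it serves here for order within a library, given the exon lengths used. The median over subunits was 162 and 153 TPM with BMS-582949, against 219 and 224 TPM with DMSO. Assembly factors were scarcer, with medians of 26.4 and 25.3 TPM against 28.6 and 28.3 TPM. The ratio of the subunit median to the assembly factor median was 6.12 and 6.05 with BMS-582949, against 7.68 and 7.91 with DMSO. The ratio did not overlap between the groups, but with 2 libraries each no exact permutation test can give a two-sided p below 0.333.

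As a share of all counts, the subunits took 0.353% (Clopper-Pearson 95% interval 0.351 to 0.355) and 0.355% (0.353 to 0.357) with BMS-582949. With DMSO they took 0.576% (0.574 to 0.579) and 0.552% (0.550 to 0.555). Assembly factors took 0.0159% in both treated libraries, against 0.0153% and 0.0154% with DMSO. The intervals cover counting error only. The shares do not depend on TMM scaling, and on them the subunits were lower in both treated libraries than in both DMSO libraries (exact permutation test, two-sided p = 0.333, the smallest possible). The share of the assembly factors was slightly higher in the treated libraries, with the same p. With library size alone, which also leaves out TMM scaling, the median log2 fold change was 0.41 over all tested genes. That of the assembly factors was then 0.02, below the typical gene.

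Among assembly factors, Ndufaf7 (chr17:78937136-78948052, plus strand), an arginine methyltransferase of the mitochondrial matrix, was the only member of the enzyme's 51 genes called higher. It had 20.2 and 18.7 CPM with BMS-582949, against 9.81 and 9.25 CPM with DMSO. Both treated libraries stood far above both DMSO libraries, with a log2 fold change of 1.03 ± 0.12 (adjusted p = 9.4e-06, edgeR). This estimate was between 0.91 and 1.41 over all alternatives.

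Ndufaf5, which hydroxylates an arginine of NDUFS7 in human cells, fell the most of the assembly factors. It had 17.2 and 17.5 CPM with BMS-582949, against 33.7 and 38.5 CPM with DMSO, and the log2 fold change was -1.06 ± 0.11 (adjusted p = 4.8e-06, edgeR). Its size was thus in the range of the subunits. Ndufaf8, the partner protein of NDUFAF5 in human cells, had 15.2 and 16.1 CPM against 19.6 and 19.8 CPM, a smaller change of -0.33 ± 0.11 (adjusted p = 0.023). Ndufaf8 was not called without BMS-582949 replicate 1, without either DMSO library in turn, or with upper-quartile scaling. Its log2 fold change was 0.05 with library size alone and 0.12 after the trend on GC content and exon length was removed.

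Ndufaf3 and Ndufaf4 act together on the Q module, and Ndufaf1 belongs to the complex that assembles the ND2 part. Ndufaf1 had 16.7 and 19.3 CPM with BMS-582949, against 25.7 and 25.0 CPM with DMSO (-0.49 ± 0.12, adjusted p = 0.0031, edgeR). Ndufaf4 had 27.2 CPM in both treated libraries, against 39.0 and 34.2 CPM (-0.43 ± 0.11, adjusted p = 0.0042). Ndufaf3 had 21.9 and 24.3 CPM against 29.1 and 31.2 CPM (-0.38 ± 0.11, adjusted p = 0.0099). Treated libraries were lower for all of these, by less than for any subunit with TMM scaling. With the GC and length trend removed, Ndufaf3 was at -0.17 and the subunit Ndufa8 at -0.14. The call for Ndufaf4 was lost without DMSO replicate 1, and that for Ndufaf3 without DMSO replicate 2 or with the GC and length trend removed. With library size alone Ndufaf1, Ndufaf3 and Ndufaf4 were not called, at -0.11, -0.0026 and -0.05.

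Ndufaf2 and Ndufaf6 were not called. Ndufaf2, a late-acting paralogue of the subunit Ndufa12, had 10.8 and 10.4 CPM with BMS-582949, against 7.91 and 9.38 CPM with DMSO (0.29 ± 0.14, adjusted p = 0.10, edgeR). Ndufaf2 was called higher with library size alone, with upper-quartile scaling and without DMSO replicate 2. An annotated transcript of the opposite strand covers 65.6% of its exon length. Ndufaf6, a factor for early steps of assembly, had 8.80 and 7.26 CPM against 9.17 and 9.03 CPM (-0.18 ± 0.15, adjusted p = 0.34), and its sign turned to 0.20 with library size alone and to 0.02 with the GC and length trend removed. Neither result shows that the level was the same.

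**Figure D3:**
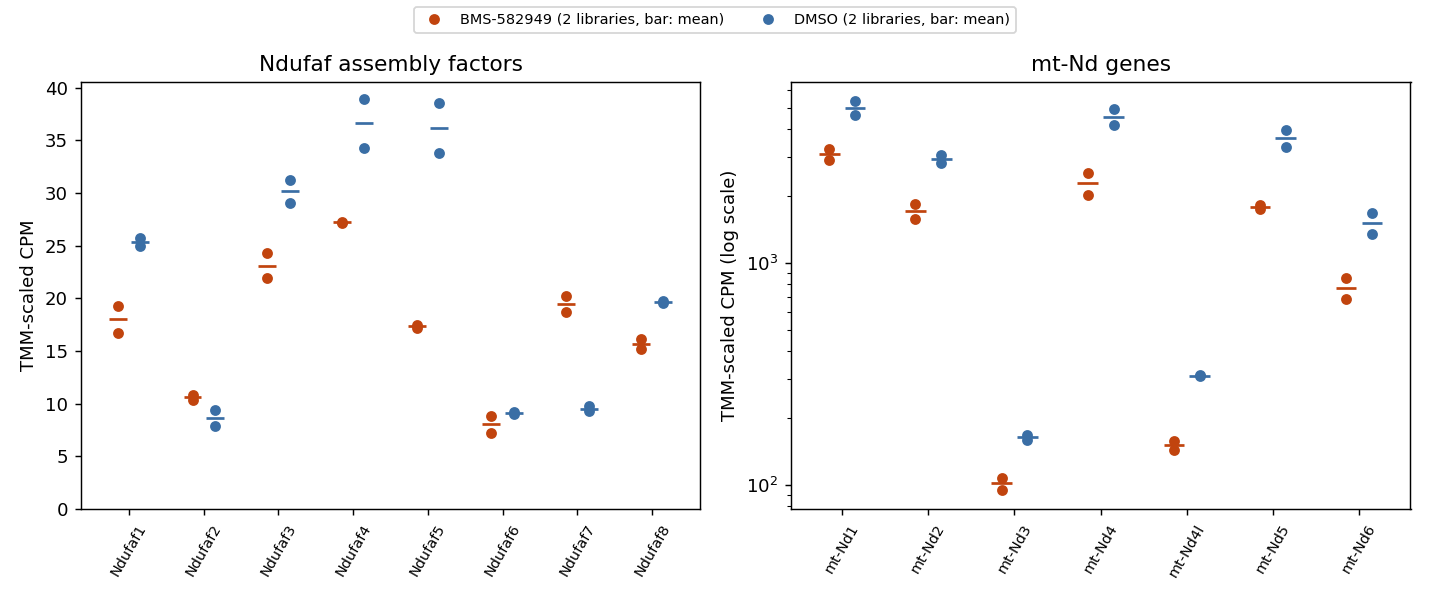
TMM-scaled CPM of the 8 assembly factors (left, linear axis) and the 7 mt-Nd genes (right, log axis) in each library, BMS-582949 left of DMSO for each gene, with bars at the mean of 2 libraries. Ndufaf7 stands at 20.2 and 18.7 CPM with BMS-582949 above 9.81 and 9.25 CPM with DMSO, while every mt-Nd gene is lower with BMS-582949.

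The 7 mt-Nd genes encode the membrane-embedded core of the proton-pumping arm. Mitochondrial DNA (chrM) is transcribed as long precursors that are cut into single RNAs, and mt-Nd6 alone among these genes lies on the minus strand. mt-Nd1 (chrM:2751-3707), which borders the ubiquinone channel, was the most abundant. It had 2920 and 3267 CPM with BMS-582949, against 5349 and 4637 CPM with DMSO, and the log2 fold change was -0.69 ± 0.09 (adjusted p = 3.2e-05, edgeR). mt-Nd3 (chrM:9459-9806), at 95.1 and 108 CPM against 159.9 and 167 CPM, changed by a like amount (-0.69 ± 0.07). mt-Nd2 (chrM:3914-4951), one of the proton-pumping subunits, had 1581 and 1833 CPM against 3061 and 2812 CPM (-0.78 ± 0.09).

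The other 4 had more negative estimates with TMM scaling, and they are neighbours, from mt-Nd4l to mt-Nd6. This order was not tested. With the GC and length trend removed, mt-Nd4l was at -0.61, less negative than the mt-Nd median of -0.66. mt-Nd4l (chrM:9877-10173) had 144 and 158 CPM with BMS-582949, against 312 and 308 CPM with DMSO (-1.04 ± 0.07), and mt-Nd4 (chrM:10167-11544) 2024 and 2535 CPM against 4942 and 4174 CPM (-1.0 ± 0.11). mt-Nd5 (chrM:11742-13565), the outermost pump, had 1752 and 1831 CPM against 3964 and 3321 CPM (-1.02 ± 0.09). mt-Nd6 (chrM:13552-14070, minus strand) had 689.7 and 853 CPM against 1674 and 1344 CPM (-0.97 ± 0.11). Treated libraries were below DMSO libraries for each gene, and the largest adjusted p of the 7 was that of mt-Nd1. mt-Nd4l shares bases with mt-Nd4, and mt-Nd5 with mt-Nd6. Nuclear pseudogene copies of 5 of the 7 are annotated.

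mt-Nd6 made up 7.49% and 8.06% of mt-Nd counts with BMS-582949, against 8.60% and 8.01% with DMSO. These shares overlapped (exact permutation test, two-sided p = 0.667). All mt-Nd genes together took 1.06% and 1.20% of all counts, against 1.71% and 1.46%. Of the counts from mitochondrially encoded genes, they took 29.5% and 29.4% with BMS-582949, against 26.3% and 25.0% with DMSO, so that on this denominator they were higher. The share of all mitochondrially encoded genes was 3.60% and 4.07% of all counts, against 6.52% and 5.85%. The p was 0.333 for each of the last 3 shares, the smallest the exact test allows.

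The other 6 protein genes of mitochondrial DNA were all lower too, with a median log2 fold change of -0.90. mt-Co1, a core subunit of cytochrome c oxidase, had 12131 and 13162 CPM with BMS-582949, against 33216 and 29675 CPM with DMSO, and a log2 fold change of -1.31 ± 0.10, more negative than that of any mt-Nd gene. mt-Co3 was at -1.11 ± 0.10 and mt-Co2 at -0.92 ± 0.10.

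The balance of the genomes was compared in TPM. The ratio of the mt-Nd median to the subunit median was 25.9 and 32.4 with BMS-582949, against 29.6 and 25.8 with DMSO. The libraries of the groups were interleaved, and no shift of this ratio between mitochondrial and nuclear RNA was detectable with 2 libraries each.

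Further genes of the pathway were read from lists, to be set beside the 29.7% lower and 30.5% higher of all tested genes. Of 13 assembly factors named otherwise, 9 were lower and none was higher, with a median of -0.59. With library size alone, 5 were lower and 4 higher, where 17.0% and 51.0% of all tested genes were. Foxred1, an oxidoreductase needed for complex I assembly, had 34.0 and 35.7 CPM with BMS-582949, against 60.8 and 66.3 CPM with DMSO (-0.87 ± 0.08). Tmem70, which acts on the membrane arm and on ATP synthase, was at -0.78 ± 0.07, and Aifm1, which works with the importer Chchd4, at -0.78 ± 0.09. Acad9, Nubpl, Dmac2 and Chchd4 were not called. Acad9, of the same complex as Ndufaf1, was at 0.04 ± 0.08, while Ecsit and Tmem126b of that complex were lower, at -0.67 ± 0.09 and -0.72 ± 0.11.

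Other enzymes that reduce ubiquinone were mostly lower, 6 of 9, with a median of -1.11. Succinate dehydrogenase contributed 4 of these. Its iron-sulfur subunit Sdhb had 217 and 219 CPM with BMS-582949, against 658 and 657 CPM with DMSO (-1.59 ± 0.06). Sdha was at -1.31 ± 0.07, and Etfdh, which passes electrons from fatty acid oxidation, at -1.23 ± 0.07. Prodh, which oxidises proline, was higher, with 9.20 and 9.67 CPM against 4.67 and 5.23 CPM (0.93 ± 0.16). Gpd2 and Dhodh were not called, at 0.20 ± 0.11 and 0.19 ± 0.14, and were called higher with library size alone.

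Genes for the replication, transcription and RNA handling of mitochondrial DNA did not follow the mt-Nd genes as a group. Of 16, 12 were not called, and their median was 0.01, close to that of all genes. Lrpprc, which stabilises mitochondrial mRNA, was lower with 71.4 and 66.0 CPM against 76.3 and 84.6 CPM (-0.23 ± 0.08). Tfb1m, a mitochondrial rRNA methyltransferase, was higher with 10.9 and 10.2 CPM against 6.31 and 5.13 CPM (0.88 ± 0.16). The polymerase genes Polg2 and Polg were higher as well, at 0.66 ± 0.23 and 0.27 ± 0.08. With library size alone none of the 16 was lower and 10 were higher, where 17.0% and 51.0% of all tested genes were. With upper-quartile scaling none was lower and 5 were higher, where 27.3% and 33.7% of all tested genes were. The count of lower genes was 2 without DMSO replicate 1 and 0 when DMSO replicate 2 was left out.

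Of 9 nuclear regulators tested, 3 were lower and 5 higher, where 29.7% and 30.5% of all tested genes were, and 60.2% in either direction. Ppargc1b, a coactivator of mitochondrial biogenesis in osteoclasts, had 4.67 and 6.07 CPM with BMS-582949, against 17.7 and 19.4 CPM with DMSO (-1.79 ± 0.15). Esrra, the nuclear receptor ERRα that works with it, had 57.5 and 54.2 CPM against 118 and 123 CPM (-1.11 ± 0.07). Sirt3, a mitochondrial deacetylase, had 8.22 and 10.2 CPM against 26.8 and 30.4 CPM (-1.63 ± 0.14). The transcription factor genes Gabpa, Gabpb1, Nrf1 and Yy1 and the coactivator gene Pprc1 were higher, between 0.45 for Yy1 and 0.84 for Gabpb1. Tfeb was not called, and Ppargc1a had no count in any library. All the calls for these regulators were unchanged under every scaling tried, except that Tfeb was called higher with library size alone.

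**Figure D4:**
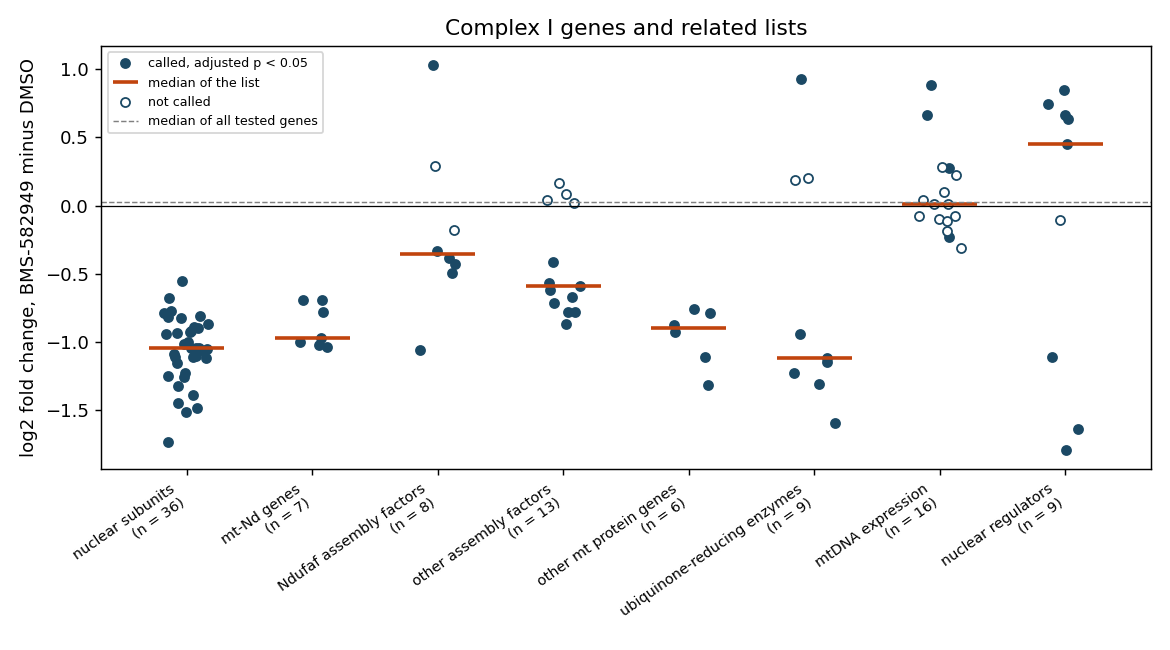
Log2 fold change, BMS-582949 minus DMSO, of single genes (points) by list with TMM scaling; the bar marks the list median. Subunits, mt-Nd genes and other ubiquinone-reducing enzymes centre near -1, and the genes for expression of mitochondrial DNA centre at 0.01.

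Promoter sequences are shown because so many subunits moved together. RefSeq windows of 250 bases before to 50 bases after the start, on GRCm38.p6, were matched for 39 members by symbol, 32 subunits and 7 assembly factors. The mt-Nd genes, Ndufs1, Ndufa2, Ndufb9 and Ndufaf6 were among those without a window. Letters of 6 motifs were searched on both strands, and a match describes the letters only. AAGATGGC, the motif of YY1, was in the windows of 7 of 32 subunits (21.9%), of 1 of 7 assembly factors and of 3.19% of all 27025 genes with a window. In the sequences below, printed 5′ to 3′, capitals mark this motif.
Ndufa3 (chr7:3617384-3617413, plus strand): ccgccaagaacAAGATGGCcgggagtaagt
Ndufa9 (chr6:126849097-126849126, minus strand): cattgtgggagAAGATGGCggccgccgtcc
Ndufb8 (chr19:44555393-44555422, minus strand): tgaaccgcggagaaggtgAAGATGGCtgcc
Ndufc1 (chr3:51408915-51408944, minus strand): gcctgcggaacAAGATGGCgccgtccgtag
Ndufs4 (chr13:114388045-114388074, minus strand): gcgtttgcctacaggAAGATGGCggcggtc
Ndufs6 (chr13:73328433-73328462, minus strand): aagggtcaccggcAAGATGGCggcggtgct
Ndufs7 (chr10:80249462-80249491, plus strand): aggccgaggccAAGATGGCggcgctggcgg
Ndufaf8 (chr11:120098933-120098962, plus strand): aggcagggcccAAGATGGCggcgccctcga

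All 7 subunit matches read in the direction of the gene and began 22 to 38 bases after the start site. The ATG inside the motif was the annotated start codon in each of these 7 subunits, and not in Ndufaf8. Of all 862 genes with a match, 536 had it in the direction of the gene, and among these it held the start codon in 174 (32.5%). The 7 subunits with the motif had a median log2 fold change of -0.94, and the 25 without it one of -1.05. The motif was thus in subunits that changed much, such as Ndufa3 and Ndufc1 (-1.51 and -1.45), and in ones that changed less, such as Ndufs7 and Ndufs6 (-0.81 and -0.82).

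CGCATGCG, the palindromic centre of the motif of NRF1, was in 2 of 32 subunit windows (6.25%, Ndufa8 and Ndufa11), in 2 of 7 assembly factor windows and in 2.07% of all windows. The assembly factors were Ndufaf5 and Ndufaf4, shown here because both were lower. The 2 subunits with this motif had a median log2 fold change of -0.68, and the subunits without it one of -1.05. AAGGTCA, the motif of ERRα and related receptors, was in 3 of 32 subunit windows (9.38%, Ndufb2, Ndufb4 and Ndufs5), in no assembly factor window and in 5.38% of all windows. The Ndufb4 match is shown as the example. Capitals mark the motif in each.
Ndufaf5 (NRF1, chr2:140170652-140170681, plus strand): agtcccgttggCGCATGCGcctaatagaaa
Ndufb4 (ERRα, chr16:37654406-37654435, minus strand): ttcctgagcctgAAGGTCAgactcgagagg
Ndufaf4 (NRF1, 250 bases before the start, chr4:24897833-24898082, plus strand): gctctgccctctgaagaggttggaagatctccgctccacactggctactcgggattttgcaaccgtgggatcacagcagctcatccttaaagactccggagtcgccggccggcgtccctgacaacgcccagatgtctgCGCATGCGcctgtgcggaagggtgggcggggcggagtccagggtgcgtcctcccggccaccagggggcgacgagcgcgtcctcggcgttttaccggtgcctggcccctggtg

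The other motifs were in few windows. CCGGAAG, of ETS factors such as GABPA, was in 4 of 32 (12.5%) against 9.93% of all windows, and in Ndufaf1 and Ndufaf8 among assembly factors. TGANTCA, of AP-1, was in 3 (9.38%) against 8.97%. TCACGTGA, of TFEB, was in 1 subunit window, that of Ndufa7 (3.12%, against 1.13% of all windows), and in no assembly factor window. The window of Ndufaf7, the assembly factor that was higher, held none of the 6 motifs. The same was true of Ndufaf2, of Ndufaf3, which was lower, and of several subunits, among them Ndufa1, the most lowered member. No match of one motif overlapped a match of another in these members.

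**Figure D5:**
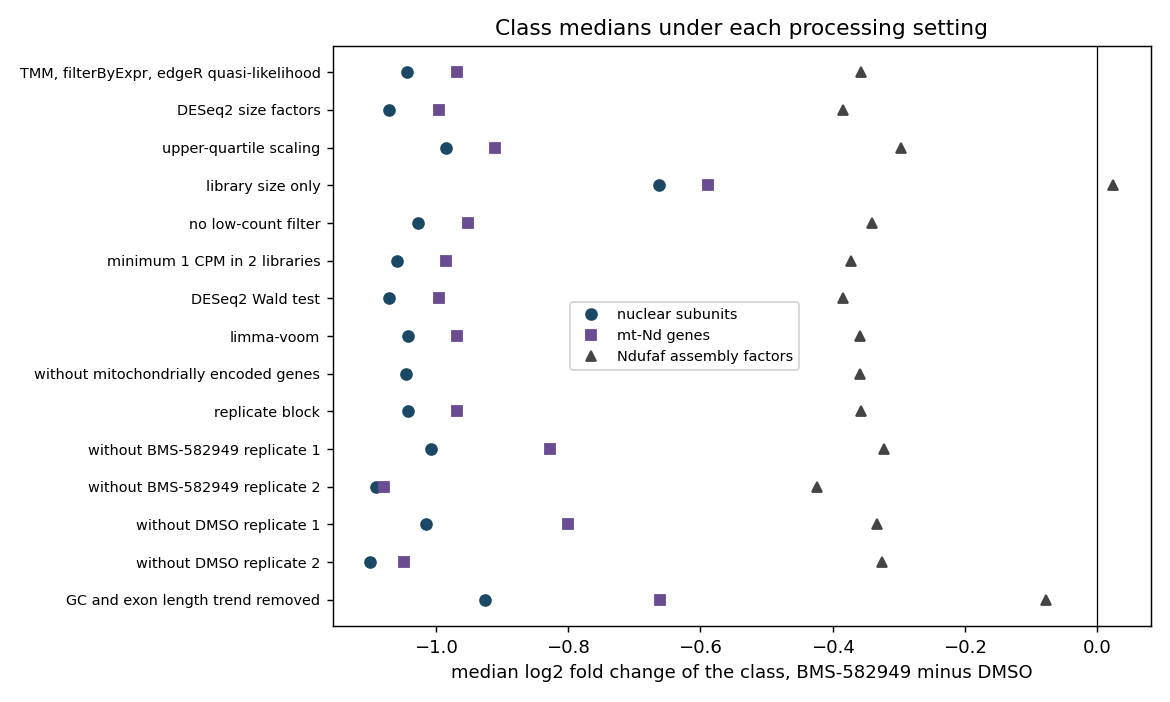
Median log2 fold change, BMS-582949 minus DMSO, of the subunits, the mt-Nd genes and the assembly factors under each processing alternative. The subunit median stays between -1.10 and -0.66 and always lies below that of the assembly factors. With library size alone the latter is 0.02, against 0.41 for all tested genes.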

How the data were processed

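Per the labels' protocols, RNA was extracted with TRIzol and libraries were made with a Hieff NGS Ultima Dual-mode mRNA kit. The authors deposited raw counts per gene. Per the submitters' processing notes, GRCm38 was the build and the tools were DESeq2 1.30.1, HISAT2 2.0.4 and Trimmomatic 0.36, in no stated role. For the counting tool, the annotation and the strand setting, nothing was given in the sources used here. Symbols for 22022 of the 22036 Ensembl rows came from GENCODE M21.

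The test was edgeR's (4.0.16, in R 4.3.3): filterByExpr with a minimum count of 10, TMM scaling and the quasi-likelihood F test without covariates, on 2 residual degrees of freedom. P-values were Benjamini-Hochberg adjusted over all 13214 genes tested, and a gene was called under 0.05. Every adjusted p given is from this test. CPM is TMM-scaled, each log2 fold change is BMS-582949 minus DMSO, and ± is its standard error. That error was derived from the F statistic, whose variance estimate draws on all genes tested as well as on the gene itself. The steps were checked on simulated data in which far fewer genes changed than were called here, equally many up and down. That check cannot decide between the scalings.

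Members and lists were chosen with earlier results of these data known, and no test was made over a list. The values of 1 subunit are not reported here singly, and it is left out of the plots of single subunits by name; it counts in the class totals. Any member may be named, and from each further list up to 3 called genes with the largest change; genes beyond these (such as Ecsit, Acad9, Prodh, Lrpprc and the regulators that were higher) were chosen after their values were seen. Replicates differed by more than sampling noise, with 13.7 (BMS-582949) and 9.62 (DMSO) chi-square units per degree of freedom, and were kept as 2 samples each. Alternatives were other scalings, filters, tests (DESeq2 1.42.0, limma-voom 3.58.1) and thresholds, leaving out mitochondrially encoded genes, a replicate block, leaving out each library, and removal of a trend on GC content and exon length.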

Additional observations from a re-analysis of the deposited data

How the results depend on the processing

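Over the alternatives other than the thresholds, the 36 subunits gave 504 of 504 results with the direction and call of the analysis as reported, the 7 mt-Nd genes 91 of 91 and the assembly factors 95 of 112. Library size alone moved the medians to -0.66 for subunits, 0.0244 for assembly factors and -0.59 for mt-Nd genes, and gave 1 assembly factor lower and 2 higher. It also gave 2240 genes lower and 6738 higher of all tested. Removal of the GC and length trend gave medians of -0.93, -0.0771 and -0.66 in the same order, with 3 assembly factors lower. Upper-quartile scaling gave the assembly factors a median of -0.30 and 2 members higher. Tested against a 1.5-fold change, 33 subunits, 5 mt-Nd genes and 1 assembly factor were lower, and 1824 genes were lower and 1572 higher of all tested. Leaving out each library in turn gave 3 to 5 assembly factors lower, 1 to 2 higher, and medians of -0.42 to -0.32 for assembly factors and -1.08 to -0.80 for mt-Nd genes. Without DMSO replicate 1 or DMSO replicate 2, 3 assembly factors were lower, and without the second of these 2 were higher. Signs turned for Ndufaf6 (0.20 with library size alone, 0.0188 with the trend removed) and Ndufaf8 (0.0514 and 0.119). The log2 ratio of the mt-Nd share was -0.49 of all counts and 0.20 of mitochondrially encoded counts, and that of the subunit share -0.67 and, without mitochondrially encoded counts, -0.71. The causes were not tested, other than what each setting changes by construction. In the further lists, 317 of 332 counts stayed within 1.5 times of those reported.

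Over genes, replicate 1 minus 2 correlated at -0.078 between the groups. With 2 libraries per group, this cannot decide whether samples of the same replicate number share an origin. With the replicate number as a block, the medians were -1.04 for subunits, -0.36 for assembly factors and -0.97 for mt-Nd genes, and the counts of called members were the same. Depth limits the 8 assembly factors most, at 8.03 to 27.2 CPM with BMS-582949 and 8.65 to 36.6 CPM with DMSO.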

Other observations

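Of the 44 nuclear-encoded members, 16 lie head to head with a gene that starts within 1000 bases on the other strand. These were 12 subunits and 4 assembly factors. Only neighbours with deposited counts were considered, and overlapping starts were included. Whether the genes of a pair share a promoter was not tested. Of the 14 such neighbours that were tested, 4 were lower (28.6%), 5 were higher (35.7%) and 5 were not called, shares close to the 29.7% lower and 30.5% higher of all tested genes. Mrpl36, a mitochondrial ribosomal protein gene beside Ndufs6, was lower with 50.8 and 52.2 CPM with BMS-582949, against 114 and 108 CPM with DMSO (log2 fold change -1.11, adjusted p = 2.6e-08, edgeR). Ndufs6 itself had 37.7 and 37.6 CPM, against 69.9 and 63.5 CPM. Wdr4, a subunit of a tRNA methyltransferase beside Ndufv3, was higher with 39.6 and 34.2 CPM against 28.9 and 31.0 CPM (0.30, adjusted p = 0.029), while Ndufv3 had 35.8 and 39.0 CPM against 101 and 94.8 CPM. Eef1b2, a translation elongation factor gene whose start overlaps that of Ndufs1, was at 523 and 546 CPM against 499.6 and 495 CPM (0.10, adjusted p = 0.16).

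Among assembly factors, Esf1 beside Ndufaf5 was higher (0.37, adjusted p = 0.019) where Ndufaf5 was lower. Cebpz beside Ndufaf7 was higher with 31.5 and 29.6 CPM with BMS-582949, against 25.5 and 24.3 CPM with DMSO (0.29, adjusted p = 0.031), less than Ndufaf7 itself at 1.03. Ercc8, a DNA repair gene beside Ndufaf2, was higher (0.75, adjusted p = 0.00076), and Tepsin beside Ndufaf8 was lower (-0.40, adjusted p = 0.033). Differences within a pair were not tested. Without strand information, reads in overlapping ends cannot be told apart.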
